A study of Mus musculus with 27 samples.

Results

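Retinas of Gne+/- mice were compared with retinas of wildtype mice by 3′ mRNA sequencing. The members were 14 of the 27 libraries of the series, chosen by the genotype in the sample labels: 7 Gne+/- C3+/+ and 7 wildtype Gne+/+ C3+/+ libraries. All mice were 9 months old, and both groups carried 2 intact copies of C3, the complement protein on which all activation routes meet. The Gne+/- mice are labelled as heterozygous knock-outs, and the labels name neither a strain, nor a sex, nor a promoter or Cre that would confine the deletion to a cell type. Each library is labelled with a mouse of its own and with a sequencing run: wildtype mice 1, 2, 4, 5 and 6 and Gne+/- mice 1 to 5 were in run 1, and mice 7 and 8 of each genotype were in run 2. The other 13 libraries, C3-/- and Gne+/- C3-/-, entered the model so that the spread between mice was estimated over all groups.

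Gne encodes the enzyme that makes the free sugar N-acetylmannosamine and phosphorylates it, the first steps of sialic acid synthesis. Sialic acids cap the outer ends of glycans on proteins and gangliosides, where they carry negative charge and are read by receptors of the Siglec family on microglia and by regulators that restrain complement on host cells. The retina is rich in gangliosides and in sialylated adhesion proteins, and its resident macrophages, the microglia, remove synapses and cell debris tagged by complement. The comparison asks which transcripts other than Gne differed in the whole retina when 1 copy of Gne was lost. Sialic acid itself was not measured in these files.

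The unit throughout is CPM, the counts of a gene per M counts of its library (M, mega) after scaling for composition, and differences are log2 fold changes of Gne+/- against wildtype from a model with genotype and run (edgeR). The 14 libraries held 13.5 to 27.8 M counts. Run 2 differed from run 1 in 10354 of the 17409 genes tested (59.5%), so values are given run by run. The rod photoreceptor genes together made up 95800 to 116000 CPM in run 1 and 43900 to 49500 CPM in run 2, so every library carried the defining transcripts of the retina. The groups overlapped in run 1, and in run 2 both Gne+/- libraries lay below both wildtype libraries. The run score, a score of 600 genes that differ between the runs, set from libraries without C3, lay between -3.85 and -2.44 in wildtype and between -3.81 and -1.83 in Gne+/- libraries of run 1. The mean of 4 Y-linked genes was below 1 CPM in all 5 wildtype libraries of run 1, and was 89.5 and 157 CPM in Gne+/- mice 1 and 4 of that run and 72.2 to 84.8 CPM in all 4 libraries of run 2. Lens genes were high in the same Gne+/- mice 1 and 4, and their values are given below. In whole tissue, fewer cells of a type and less RNA per cell cannot be told apart.

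Gne (ENSMUSG00000028479, chromosome 4, 44034075 to 44084177, GRCm38) was the check of the labels. In run 1 it measured 99.2 to 162 CPM in wildtype (129 ± 22.5, SD, n = 5) and 33.9 to 56.7 CPM in Gne+/- mice (47.6 ± 8.37, n = 5). Run 2 gave 47.0 and 55.5 CPM in wildtype and 16.4 and 13 CPM in Gne+/- mice. The genotypes did not overlap in either run. Over both runs Gne fell by 1.54 log2 units (SE 0.13, 95% interval -1.81 to -1.28, edgeR adjusted p = 3.32e-09). The 56 tested genes within 2 Mb of Gne were split evenly, 30 with a positive and 26 with a negative difference (median 0.02), and their lowest adjusted p was 0.849.

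Gne was the only gene past an adjusted p of 0.05, 1 of 17409 tested (0.00574%). An unadjusted p under 0.05 was reached by 1003 genes, 468 higher and 535 lower in Gne+/- mice, or 5.76% of those tested. The same single call was made by limma-voom and by edgeR on the 14 libraries alone. DESeq2 called 8 of 17368 genes (0.0461%), Gne included. The other 7 are described with the genes below. Over all tested genes the median difference was 0.005, and 50.6% were positive.

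The size of change that these libraries could show depended on expression. The 95% interval lay within 1 log2 unit of 0 on both sides for 9491 genes (54.5%), and within 0.5 log2 units for 3952 (22.7%). Among the 2250 genes at 100 CPM or more the interval stayed within 1 log2 unit for 97%, and among the 7089 genes between 10 and 100 CPM for 89.8%. That share dropped to 17.5% between 1 and 10 CPM and to 0.147% below 1 CPM. Rod, cone, bipolar and Mueller glia genes lie mostly in the first 2 classes, whereas many genes of microglia, complement and antigen presentation lie in the last 2. The sign of the difference also ran with the level: 31.3% of the genes at 100 CPM or more were positive (median -0.078), against 57.1% of those below 1 CPM (median 0.219). A list of abundant genes with a median slightly below 0 therefore does not stand out from other abundant genes.

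**Figure D1:**
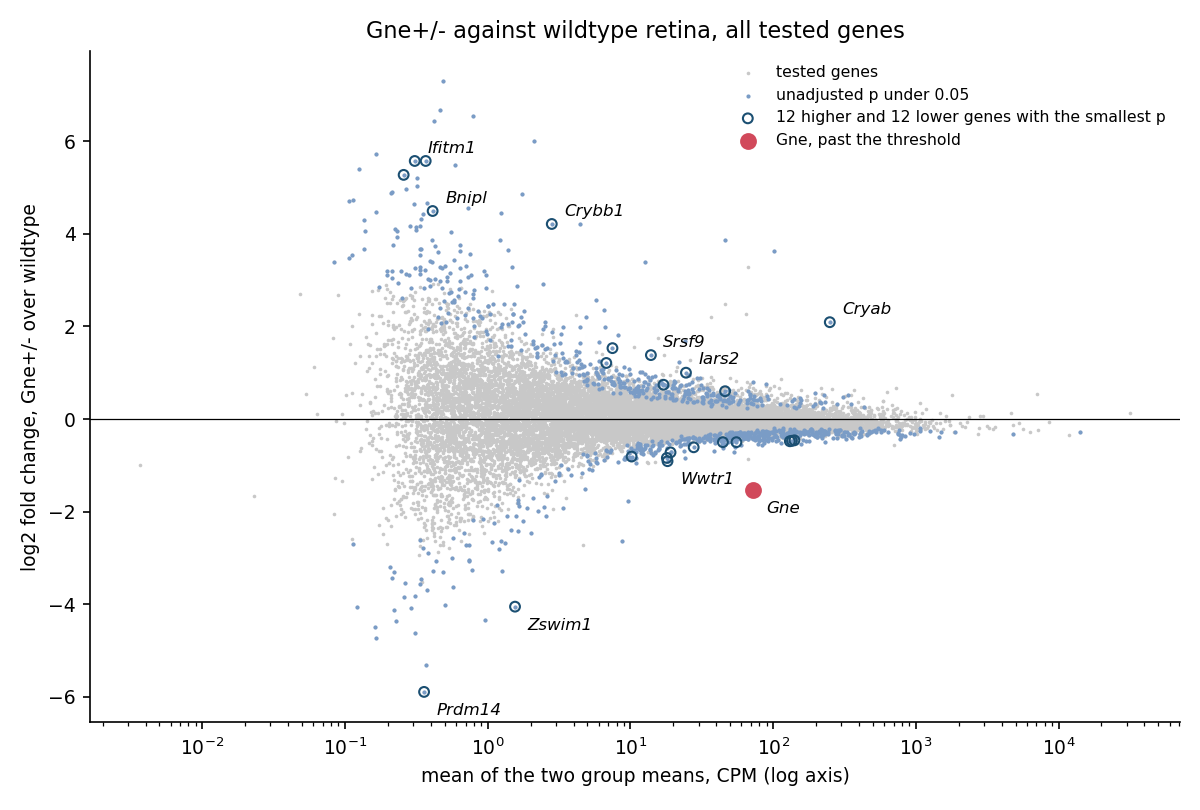
Log2 fold change of Gne+/- against wildtype (vertical axis) against the mean CPM of the gene (horizontal, log axis) for the 17409 genes tested. Blue points have an unadjusted p under 0.05, circles mark the 12 higher and 12 lower protein-coding genes with the smallest p, and Gne, in red at -1.54, is the only gene past the adjusted threshold; the spread widens towards low CPM.

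Beside Gne, the 12 higher and 12 lower protein-coding genes with the smallest p are described as values that did not pass. Their adjusted p-values ran from 0.493 to 0.822 (edgeR). Since they were taken for a small p, their sizes are those of a selection. CPM values follow the order of the mice given above, run 1 before run 2.

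The lower genes came from several functions. Wwtr1 encodes TAZ, a transcriptional co-activator of the Hippo pathway. It measured 20.7, 13.5, 21.3, 15.5 and 25.4 CPM in wildtype and 10.2, 10.5, 13.8, 6.67 and 8.07 CPM in Gne+/- mice of run 1. In run 2 the values were 39.7 and 29.3 against 22.6 and 17.9 CPM. In run 1 the groups overlapped by a single library on each side, wildtype mouse 2 and Gne+/- mouse 3, and in run 2 they were apart. Wwtr1 stood at -0.91 (SE 0.211, adjusted p = 0.493 by edgeR and 0.0329 by DESeq2).

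Phyhipl, a phytanoyl-CoA hydroxylase-interacting protein expressed in neurons, measured 204, 130, 161, 160 and 171 CPM in wildtype and 83.9, 85.2, 147, 123 and 142 CPM in Gne+/- mice of run 1. In run 2 it measured 114 and 130 against 80.6 and 104 CPM. The lowest run 1 values were in Gne+/- mice 1 and 2, and the groups overlapped in run 1 alone, at a difference of -0.48 (SE 0.124). Srsf12, a splicing factor of the SR family, measured 14.7, 12.3, 18.1, 14.4 and 10.2 CPM against 9.87, 10.3, 8.04, 4.78 and 5.53 CPM in run 1. Run 2 gave 10.2 and 10.9 against 4.9 and 8.28 CPM. Wildtype mouse 6 and Gne+/- mouse 2 touched in run 1, and the difference was -0.81 (SE 0.230).

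Genes of protein turnover and transport among the 12 were Psmd6, a subunit of the proteasome cap, at -0.50 (SE 0.145), Tfg, which organises exit sites of the endoplasmic reticulum, at -0.46 (SE 0.133), and March4, a membrane-bound ubiquitin ligase, at -0.72 (SE 0.185). Genes of RNA and the nucleolus were Tcof1, the treacle protein of ribosomal RNA synthesis, at -0.50 (SE 0.126), Rpp30, a subunit of ribonuclease P, at -0.61 (SE 0.178), and Unk, an RNA-binding zinc finger protein, at -0.47 (SE 0.136). Cyb561d2, of the cytochrome b561 family, stood at -0.84 (SE 0.205), with 18.8 to 38.3 CPM in wildtype and 12.8 to 24.4 CPM in Gne+/- mice of run 1. Tcof1 measured 40.5 to 65.4 CPM in wildtype and 32.8 to 44.6 CPM in Gne+/- mice of run 1, so that the ranges overlapped. In run 2 the 2 ranges of Tcof1 were apart, at 47.4 and 56.1 against 31.0 and 34.5 CPM.

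The last 2 lower genes rest on few counts. Prdm14, a regulator of pluripotency and germ cells, had 112 counts in 5 wildtype libraries and 1 count in the Gne+/- libraries. The ratio of Gne+/- to wildtype was 0.00843 (95% interval 0.000211 to 0.0479, counting error only). Wildtype mice 2 and 6 had no count of it either, so wildtype libraries alone span the difference. Zswim1 measured 0.242 to 4.86 CPM in wildtype and 0 to 0.494 CPM in Gne+/- mice of run 1, and 5.32 and 1.36 against 1.57 and 0.65 CPM in run 2.

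Among the higher genes, Srsf9, another SR splicing factor, had the smallest p. It measured 1.79, 5.32, 3.57, 2.41 and 1.36 CPM in wildtype and 16.7, 14.2, 4.81, 6.67 and 4.52 CPM in Gne+/- mice of run 1. In run 2, where the gene was more abundant in all libraries, it measured 20.4 and 33.9 against 45.3 and 33.5 CPM. The highest run 1 values were in Gne+/- mice 1 and 2, and the groups overlapped in both runs. Srsf9 stood at 1.38 (SE 0.320, adjusted p = 0.493 by edgeR and 0.0369 by DESeq2). Gne+/- mice 1 and 2 also had the 2 highest run scores of run 1, -1.83 and -2.20.

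Iars2, the mitochondrial isoleucyl-tRNA synthetase, measured 8.38, 4.23, 3.45, 6.55 and 2.78 CPM against 16.3, 15.9, 7.38, 13.3 and 9.55 CPM in run 1. The values of run 2 were 54.9 and 57.7 against 64.9 and 77.5 CPM. Only wildtype mouse 1 and Gne+/- mouse 3 overlapped, and the difference was 1.00 (SE 0.258). Rnf10, a RING finger protein, measured 5.25, 3.69, 5.77, 6.40 and 5.05 CPM against 9.94, 6.92, 11, 12.1 and 12.1 CPM in run 1. All 5 Gne+/- libraries lay above all 5 wildtype libraries there, whereas in run 2 the values were 38.6 and 37.3 against 33.4 and 50.9 CPM and crossed. Rnf10 stood at 0.74 (SE 0.203).

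Actr5, a subunit of the INO80 chromatin remodeller, stood at 1.21 (SE 0.345), with 0.717 to 3.46 CPM in wildtype and 4.39 to 11 CPM in Gne+/- mice of run 1. The groups were apart there and overlapped in run 2, at 10.9 and 11.3 against 14.3 and 10.9 CPM. Emd, the nuclear envelope protein emerin, stood at 1.53 (SE 0.447), with 0.512 to 2.24 against 0.406 to 8.50 CPM in run 1 and 14.6 and 11.5 against 22.6 and 30.9 CPM in run 2. Both genes, like Srsf9, Iars2 and Rnf10, were much more abundant in run 2. Plcd3, a phospholipase C of the delta class, stood at 0.60 (SE 0.174) and measured 21.1 to 38.5 CPM in wildtype and 30.6 to 61.1 CPM in Gne+/- mice of run 1. Of the 12 higher genes, 11 were higher in run 2 than in run 1, 7 of them by at least 1 log2 unit. Of the 12 lower genes 4 were, 3 by at least 1 log2 unit. In a fit with the run score as a covariate, added after seeing the data, the median of the 12 higher genes was 1.5 in place of 1.81 and that of the 12 lower genes -0.71 in place of -0.67. The same covariate moved Emd to 0.53, Srsf9 to 0.82 and Plcd3 to 0.35. It moved Rnf10 from 0.74 to 0.76, Crybb1 from 4.21 to 4.23, Ifitm1 from 5.57 to 5.72 and Rubcnl from 5.57 to 6.14. The remaining higher genes were smaller with it. Of the 12 higher genes 2, Iars2 and Rnf10, are themselves among the 600 genes of the run score. Across 8898 genes at 10 CPM or more, which are not independent of each other, the run 1 difference and the run difference in mice without C3 had a Pearson correlation of 0.431. Of the 600 genes of the run score 16% had an unadjusted p under 0.05, against 5.76% of all genes tested. Any other part of the run score in these values was not tested.

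Of the 12 higher genes, 4 were below 1 CPM in both groups, and their fold changes rest on few counts. Cks2, a subunit of cyclin-dependent kinases, had 1 count in wildtype and 71 in 6 Gne+/- libraries, a ratio of 67.0 (95% interval 11.6 to 2680, counting error only). Ifitm1, an interferon-induced membrane protein, had 1 against 87 counts, a ratio of 82.1 (14.4 to 3280), with 72.4% of the Gne+/- counts in mouse 5. Rubcnl, a regulator of autophagosome maturation, had 1 against 124 counts, a ratio of 117 (20.6 to 4660), with 54.8% in mouse 8. In each of them a Gne+/- library also had no count, so the groups overlapped. Bnipl measured 0 to 0.176 CPM in wildtype and 0 to 2.00 CPM in Gne+/- mice.

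The last 2 of the 12 higher genes are crystallins. Cryab encodes αB-crystallin, a small heat shock protein that is abundant in the lens and also made by retinal glia and neurons. It measured 120, 88.6, 76.4, 71.6 and 99.6 CPM in wildtype and 1010, 119, 134, 1440 and 149 CPM in Gne+/- mice of run 1. Its run 2 values were 53.1 and 43.7 against 35.7 and 54.4 CPM. The large values were those of Gne+/- mice 1 and 4. The other 3 Gne+/- libraries of run 1 lay between 119 and 149 CPM, beside a highest wildtype value of 120 CPM. Crybb1, a β-crystallin of the lens, measured 0 to 0.563 CPM in wildtype and 8.09, 0.978, 2.56, 20.2 and 4.52 CPM in Gne+/- mice of run 1. In run 2 it measured 0.412 and 0.483 against 0.833 and 0 CPM. All 5 Gne+/- libraries of run 1 were above all wildtype libraries of that run, and run 2 gave no such order. Over both runs Cryab stood at 2.09 (SE 0.540, adjusted p = 0.822 by edgeR and 0.0462 by DESeq2) and Crybb1 at 4.21 (SE 1.14, 0.822 and 0.0329). In run 2 alone the differences were -0.07 and -0.10, and without Gne+/- mice 1 and 4 they were 0.33 and 2.63 over both runs.

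DESeq2 called 3 more genes, none with an approved symbol. A930014E10Rik measured 12.9, 13.9, 20.1, 16.1 and 7.66 CPM in wildtype and 32.4, 44.5, 34.4, 39.7 and 13.7 CPM in Gne+/- mice of run 1. Run 2 gave 7.30 and 13.8 against 26.5 and 24.7 CPM. Gne+/- mouse 5 lay among the wildtype libraries of run 1, and every other Gne+/- library lay above all wildtype libraries of its run. A930014E10Rik stood at 1.24 (SE 0.264), with an adjusted p of 0.401 by edgeR, the lowest after Gne, and 0.0194 by DESeq2. In the separate libraries without C3 this gene stood at -0.07 (SE 0.275). With the run score as a covariate its difference with C3 was 0.99. Gm11837 stood at -1.89 (SE 0.481, DESeq2 adjusted p = 0.0369), with 1.25 to 9.05 CPM in wildtype and 0.305 to 2.06 CPM in Gne+/- mice. A830092H15Rik was at 0 in 6 of 7 wildtype and 2 of 7 Gne+/- libraries (DESeq2 adjusted p = 0.0179). Without C3, Gm11837 stood at -0.55 (SE 0.486) and A830092H15Rik at 2.35 (SE 1.24).

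**Figure D2:**
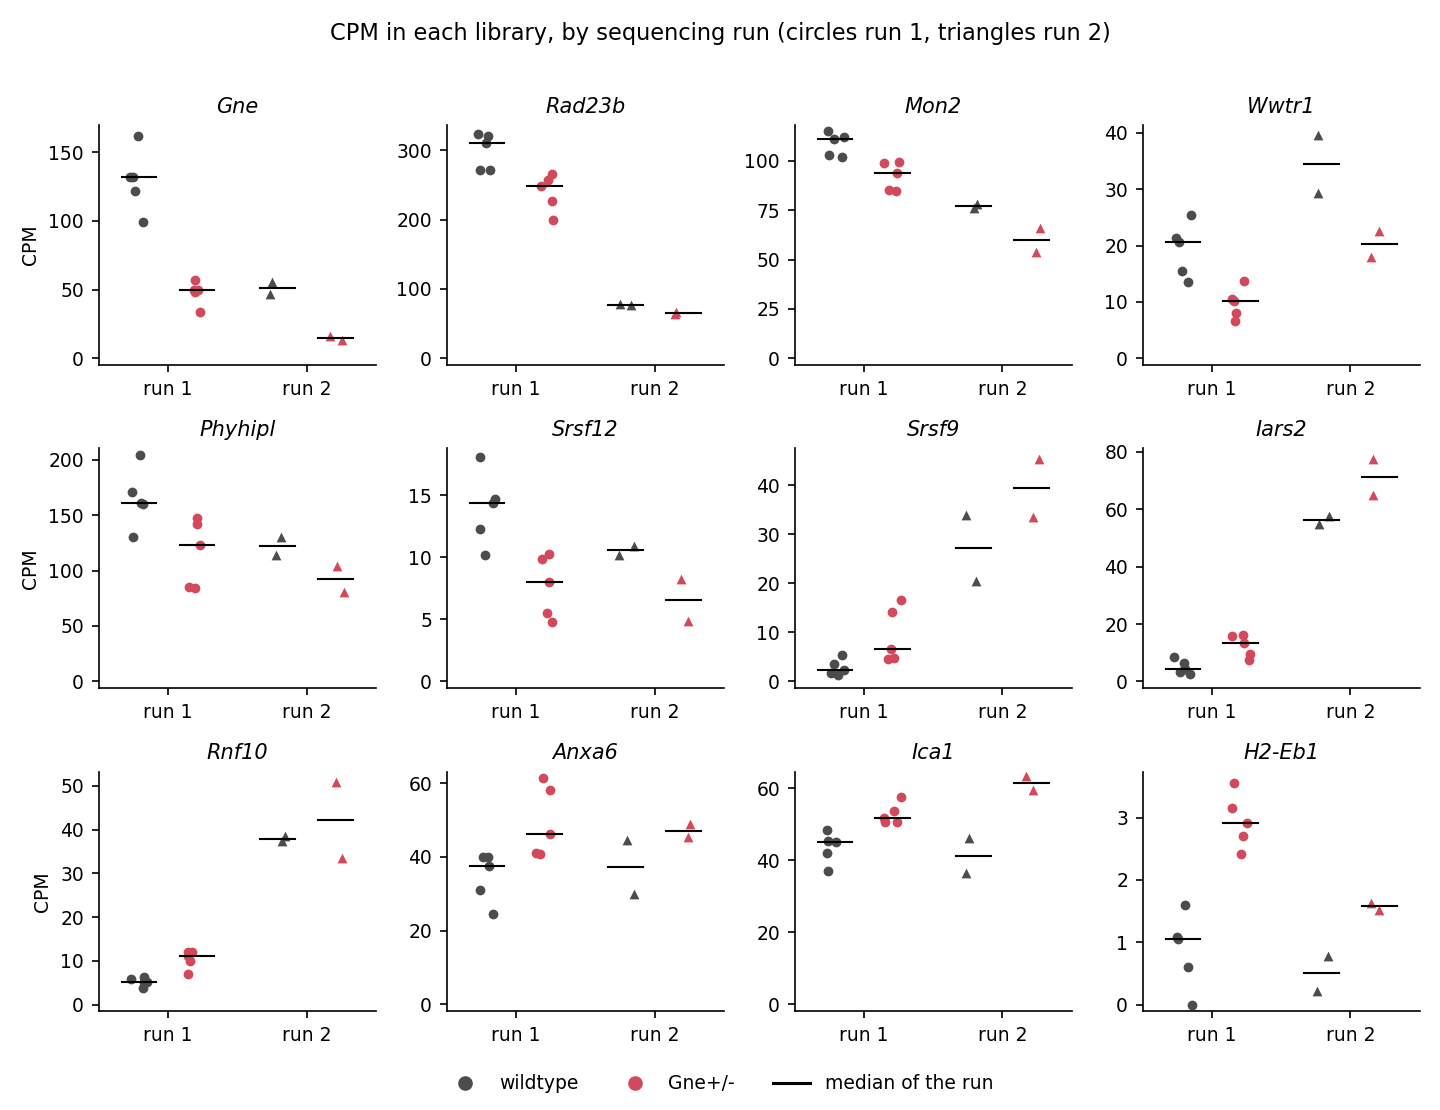
CPM of 12 genes in each of the 14 libraries, with wildtype and Gne+/- libraries side by side in each run; circles are run 1, triangles are run 2 and the line is the median of the group in that run. Gne, Rad23b, Mon2, Anxa6, Ica1 and H2-Eb1 do not overlap between genotypes in either run, and the other 6 genes overlap in at least 1 run.

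A second way to order genes was by whether the libraries overlapped. Over all tested genes, 9 (0.0517%) had every Gne+/- library above every wildtype library in run 1 and again in run 2, and 3 (0.0172%) had every one below, Gne among them. Within run 1 alone this held for 52 higher and 51 lower genes, and within run 2 alone, with 2 libraries a group, for 2733 and 2672. The lower genes beside Gne were Rad23b, which carries ubiquitinated proteins to the proteasome and serves nucleotide excision repair, and Mon2, which acts in transport between endosomes and the Golgi. Rad23b measured 323, 271, 311, 320 and 271 CPM in wildtype and 199, 249, 257, 266 and 227 CPM in Gne+/- mice of run 1. The values of run 2 were 78.8 and 76.3 against 66.9 and 63.5 CPM. The difference was -0.30 (SE 0.0976), and the lowest run 1 value was that of Gne+/- mouse 1. Mon2 measured 102 to 115 CPM in wildtype and 84.8 to 99.4 CPM in Gne+/- mice of run 1, and 76.0 and 78.0 against 66.1 and 53.8 CPM in run 2, at -0.27 (SE 0.113). Rad23b lies on chromosome 4, as Gne does, but not within the 2 Mb around it.

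The higher genes without overlap included 6 with an approved symbol and a mean of at least 1 CPM. Ica1, a BAR-domain protein of secretory vesicles, measured 45.0, 37.0, 48.3, 45.4 and 42.1 CPM in wildtype and 50.5, 53.7, 51.8, 50.6 and 57.7 CPM in Gne+/- mice of run 1. Its run 2 values were 36.4 and 46.1 against 59.5 and 63.3 CPM. The nearest libraries of run 1 stood at 48.3 and 50.5 CPM, and the difference was 0.36 (SE 0.129). Anxa6, a calcium-dependent membrane-binding annexin, measured 24.6 to 40.1 CPM against 40.8 to 61.3 CPM in run 1 and 30.0 and 44.7 against 48.8 and 45.4 CPM in run 2, at 0.46 (SE 0.162). Its groups were apart by less than 1 CPM in both runs.

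H2-Eb1, a beta chain of MHC class II, measured 1.06, 0.605, 1.08, 1.59 and 0 CPM in wildtype and 2.41, 2.71, 2.92, 3.56 and 3.15 CPM in Gne+/- mice of run 1. In run 2 it measured 0.783 and 0.220 against 1.63 and 1.52 CPM. The order was the same in each run at a level near 1 CPM, where the error is large, 1.75 (SE 0.914). Other class II genes did not share this order: H2-Aa stood at -1.31 (SE 1.31), H2-Ab1 at -0.22 (SE 0.707) and Cd74, the invariant chain, at -0.47 (SE 0.755). The other 3 were Limd2, at 0.58 (SE 0.210), Gstt2, a glutathione transferase, at 0.66 (SE 0.267), and Dram1, a lysosomal protein of autophagy, at 1.58 (SE 0.767). All 8 genes named here beside Gne had adjusted p-values of 0.834 to 0.860 (edgeR).

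The differences of single genes showed little likeness between runs or between C3 genotypes. Across the 8898 genes at 10 CPM or more, the correlation of the run 1 difference with the run 2 difference was 0.00852, given as a description over genes that share libraries within a run. Of 918 genes with an unadjusted p under 0.05 in run 1, 483 (52.6%) had the same sign in run 2, against 49.8% of all genes. In mice without C3, which share no library with this comparison, the same loss of Gne could be set beside it. The correlation of the 2 differences over these genes was 6.22e-05. Of the 1002 genes other than Gne with an unadjusted p under 0.05, 522 (52.1%) had the same sign without C3, against 50.5% of all genes.

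Gne itself repeated in every setting, at -1.41 (SE 0.166) in run 1, -1.78 (SE 0.246) in run 2 and -1.62 (SE 0.138) without C3, and the difference with and without C3 had an unadjusted p of 0.67 (edgeR interaction). For the 12 higher genes the median was 1.81 with C3 and 0.25 without, with 9 of 12 of the same sign. For the 12 lower genes it was -0.67 with C3 and 0.02 without, with 5 of 12 of the same sign. None of the 12 higher genes and 1 of the 12 lower genes had an unadjusted p under 0.05 without C3, and that gene, Srsf12, was higher there (0.49). The difference between the C3 genotypes had an unadjusted p under 0.05 for 6 of the higher and 12 of the lower genes, with a lowest adjusted p of 1 over all genes. Since the 24 genes were selected in the mice with C3, a smaller size in the other mice is built into this reading.

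**Figure D3:**
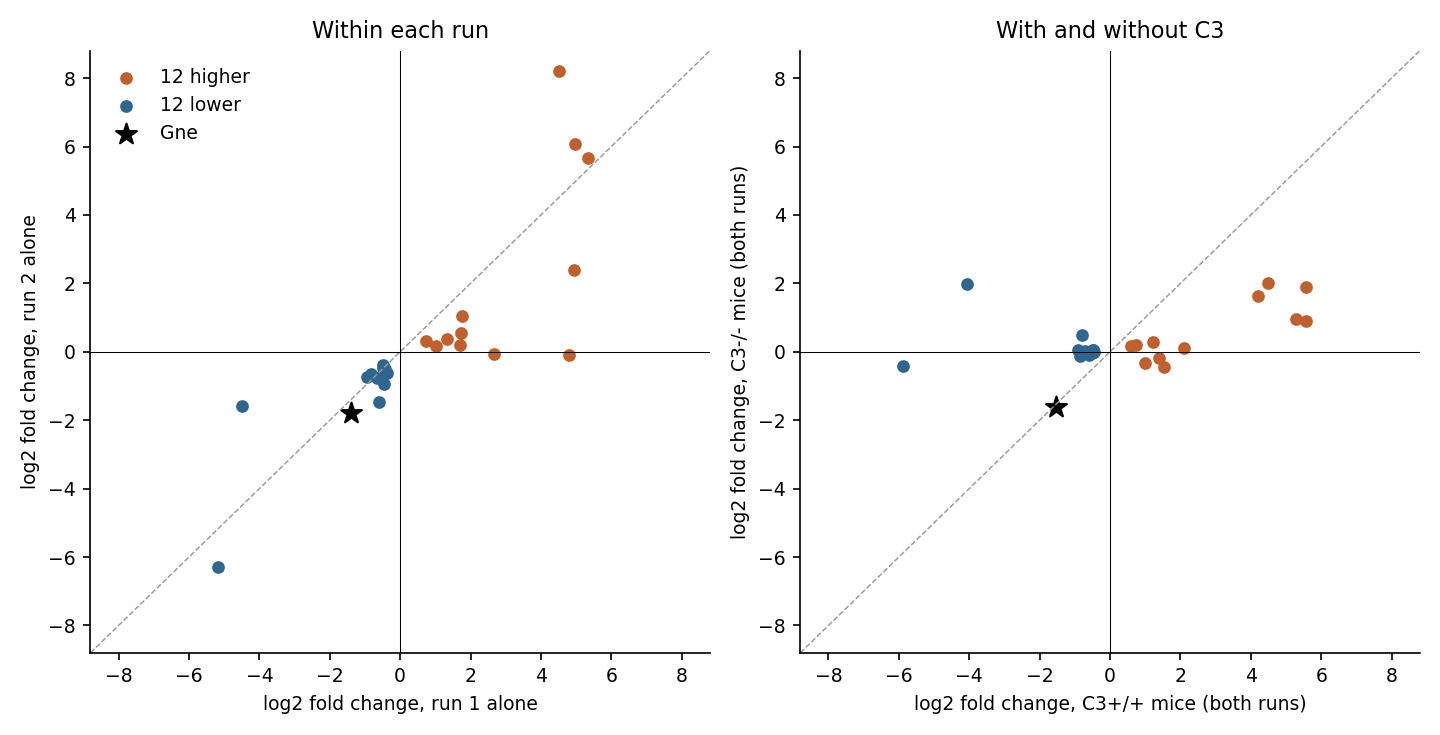
Log2 fold change of Gne+/- against wildtype for Gne and for the 12 higher and 12 lower protein-coding genes with the smallest p. One panel sets the run 1 value against the run 2 value, and the other sets the value with C3 against the value without C3. Gne lies on the same side in both panels, at -1.41 and -1.78 and at -1.54 and -1.62. The values of the other genes without C3 run from -0.45 for Emd to 2.0 for Bnipl. Their medians are 0.25 for the 12 higher and 0.02 for the 12 lower genes.

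Functions were described by 52 gene lists, which held 1057 distinct tested genes, 1 of them called, Gne. The median difference of 48 lists lay within 0.5 log2 units of 0. Each list is given by how many of its tested members were positive and by its median, beside 50.6% and 0.005 over all genes tested.

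The steps around Gne in the sialic acid pathway came first. All 6 tested members of the synthesis list were negative, Gne included, with a median of -0.26, and the median was -0.10 without C3, with 3 of 6 positive. Cmas, which activates sialic acid to its CMP form, measured 73.5 to 135 CPM in wildtype and 72.8 to 111 CPM in Gne+/- mice of run 1, and 45.4 and 38.8 against 32.0 and 31.2 CPM in run 2, at -0.19 (SE 0.148). Slc35a1, which carries CMP-sialic acid into the Golgi, stood at -0.20 (SE 0.176), and Cmah, which converts it to the hydroxylated form of mice, at -0.32 (SE 0.255). Renbp, which turns N-acetylmannosamine back, stood at -0.59 (SE 0.502) and Npl, which breaks sialic acid down, at -0.19 (SE 0.447). The groups of each of these 5 genes overlapped in run 1. The interval of Cmas and that of Slc35a1 lay within 1 log2 unit of 0, and those of Renbp and Npl did not. Nans and Nanp, the steps between Gne and Cmas, did not pass the filter on low counts, and 1 of the 8 listed genes was at 0 in all 14 libraries. Reads where genes overlap were not counted, so a low count alone does not show that either gene is scarce.

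Enzymes that add, remove or carry sialic acid showed no common direction. Of 18 tested sialyltransferases 9 were positive, with a median of 0.00, and 2 had an unadjusted p under 0.05. St3gal5, which makes the first ganglioside GM3, stood at -0.21 (SE 0.159), St8sia1, which makes the disialo-ganglioside GD3, at -0.29 (SE 0.193), and St3gal1 at 0.25 (SE 0.166). St8sia6 stood at -1.20 (SE 0.575), with median levels of 2.12 and 2.39 CPM in wildtype and Gne+/- mice. Of 4 tested genes of the sialidase list, Neu1, the lysosomal sialidase, measured 9.88 to 16.2 CPM in wildtype and 7.26 to 23.5 CPM in Gne+/- mice of run 1, where 4 of 5 Gne+/- libraries lay above all wildtype libraries, and stood at 0.39 (SE 0.210). Its partner Ctsa stood at -1.94 (SE 0.952) at levels of 0 to 2.21 CPM in run 1 and 4.41 to 11.5 CPM in run 2. The hexosamine pathway, which supplies the substrate of Gne, had 5 of 10 positive (median 0.02).

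The glycans that carry sialic acid were described by longer lists. N-glycan assembly and branching had 18 of 40 positive (median -0.01) and 4 members with an unadjusted p under 0.05, among them Alg13, a subunit of the transferase for the second sugar, at -0.59 (SE 0.236), Mgat4b, a branching enzyme, at -0.35 (SE 0.146) and Alg6 at -0.31 (SE 0.142). O-glycan and ganglioside core synthesis had 12 of 24 positive (median -0.01), and adhesion proteins that carry polysialic acid or sialic acid had 6 of 18 positive (median -0.08), with Ncam1, the main carrier of polysialic acid, at -0.07 (SE 0.0912). The median level of a tested gene was 23, 23.2 and 95.6 CPM in the 3 lists.

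The receptors that read sialic acid were scarce in these libraries. Of 17 listed genes 9 were tested, and 5 of the 9 lay below 1 CPM. Siglech, a microglial Siglec, measured a median of 2.57 CPM in wildtype against 2.41 CPM in Gne+/- mice (-0.46, SE 0.713), and Siglece, an inhibitory Siglec of mouse microglia, 0.395 and 0.222 CPM (0.61, SE 1.07). Tyrobp, the adaptor DAP12 through which activating receptors signal, stood at 1.05 (SE 0.98). The intervals of these 3 genes, whose errors hold both counting and the spread between mice, each covered changes of more than 1 log2 unit.

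Complement genes held no member past the threshold. Of 13 tested components 6 were positive (median -0.01), and of 18 receptors and regulators 9 were (median -0.04). C3 measured 188, 100, 132, 173 and 216 CPM in wildtype and 128, 125, 118, 101 and 285 CPM in Gne+/- mice of run 1. Run 2 gave 53.9 and 91.4 against 95.6 and 75.9 CPM. Within Gne+/- mice, mouse 5 was far above the rest, the groups overlapped throughout, and the difference was -0.01 (SE 0.455). C1qa, a chain of the C1q complex that starts the classical pathway, stood at 0.50 (SE 0.353), again with its highest value, 21.5 CPM, in Gne+/- mouse 5, and C4b at -0.88 (SE 0.601). Without Gne+/- mouse 5, C1qa stood at 0.15. Clu and Vtn, abundant inhibitors of the membrane attack complex, stood at 0.03 (SE 0.170) and -0.19 (SE 0.169).

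Microglia were read from genes that are mostly scarce in whole retina. Of 14 tested homeostatic genes 9 were positive (median 0.37), with a median of 0.37 without C3 as well and a typical error of 0.775. The median was 0.2 without Gne+/- mice 1 and 4. These genes had a median level of 1.35 CPM. Of all genes between 1 and 10 CPM 56.1% were positive (median 0.082), and of those below 1 CPM 57.1% (median 0.219). The summed level of the homeostatic list was 34.8 to 56.8 CPM in wildtype and 34.3 to 77.4 CPM in Gne+/- mice of run 1. In run 2 it was 28.7 and 31.5 against 28.2 and 39.1 CPM. These ranges overlapped in both runs. Cx3cr1, the fractalkine receptor, whose span is overlapped over 57.4% by other genes where reads were not counted, measured 3.57 to 19.4 CPM in wildtype and 8.15 to 12.5 CPM in Gne+/- mice of run 1, at 0.36 (SE 0.296). It stood at 0.73 without wildtype mouse 5, which had the highest value. Trem2, a lipid receptor of microglia, measured 0 to 0.512 CPM in wildtype and 1.54, 0.752, 0.0512, 2.89 and 3.15 CPM in Gne+/- mice of run 1. Its run 2 values were 0 and 1.10 against 0.966 and 2.53 CPM. Of the 5 Gne+/- libraries of run 1, 4 lay above all wildtype libraries, and Trem2 stood at 2.43 (SE 1.08). The 5 negative members of the list reached down to -1.59. Ptprc, of the same list, measured 1.70 to 4.54 CPM in wildtype and 0.0556 to 0.903 CPM in Gne+/- mice of run 1. All 5 Gne+/- libraries lay below all wildtype libraries there, and the groups overlapped in run 2. Aif1 and Cd68, both near 1 CPM, stood at 0.38 (SE 1.11) and 0.63 (SE 1.01).

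Genes of activated microglia and lysosomes had 13 of 24 positive (median 0.07), and phagocytic signals and receptors 11 of 21 (median 0.00). Ctsb, a lysosomal protease, measured 445 to 732 CPM in wildtype and 369 to 739 CPM in Gne+/- mice of run 1, with 4 of 5 Gne+/- libraries below all wildtype libraries and mouse 5 above them. In run 2 it measured 202 and 177 against 154 and 118 CPM, and stood at -0.36 (SE 0.144). Anxa5, which binds exposed phosphatidylserine, stood at -0.56 (SE 0.209), with 160 CPM in Gne+/- mouse 5 and 71.0 to 78.6 CPM in the other 4 Gne+/- mice of run 1. Apoe stood at 0.26 (SE 0.190) and Mertk, the receptor for engulfment, at -0.17 (SE 0.218).

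Most photoreceptor genes were measured with narrow errors, and both lists had medians close to 0. Of 24 tested rod genes 10 were positive (median -0.06, largest size 0.51), with 5 of 24 positive and a median of -0.15 in run 2. Of 15 cone genes 2 were positive (median -0.04), and 6 of 15 were in each run alone. Cnga3, a subunit of the cone channel gated by cyclic GMP, stood farthest from 0, at 1.23 (SE 0.613), with a wildtype median of 1.08 CPM. Opn1sw, the short-wave cone opsin, measured 619 to 964 CPM in wildtype and 508 to 900 CPM in Gne+/- mice of run 1, at -0.15 (SE 0.134). Gnat2, the cone transducin, stood at -0.01 (SE 0.0919), and Nrl, the transcription factor of rod fate, at -0.04 (SE 0.0936). The rod gene with the lowest p was Gnb1, a transducin subunit, at -0.29 (SE 0.131). The cone list, with 2 of 15 positive, has a median of 132 CPM a gene, and 31.3% of all genes at 100 CPM or more were positive.

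Bipolar cells relay photoreceptor signals to the inner retina. Of 21 rod and ON bipolar genes 7 were positive (median -0.04), and of 25 OFF and cone bipolar genes 8 were (median -0.07). Grik1, the kainate receptor subunit through which OFF bipolar cells sense glutamate, measured 629, 542, 542, 713 and 605 CPM in wildtype and 282, 351, 485, 538 and 642 CPM in Gne+/- mice of run 1. Run 2 gave 376 and 376 against 385 and 345 CPM. Of the 5 Gne+/- libraries of run 1, 4 lay below all wildtype libraries, run 2 gave no order, and Grik1 stood at -0.29 (SE 0.131). Its lowest values were in Gne+/- mice 1 and 2, which had the highest run scores of run 1. Trpm1, the cation channel of ON bipolar cells, measured 768 to 1520 CPM in wildtype and 682 to 1400 CPM in Gne+/- mice of run 1, at -0.27 (SE 0.144). With the run score as a covariate Grik1 stood at -0.12 and Trpm1 at -0.03. Prkca, a kinase that marks rod bipolar cells, stood at -0.02 (SE 0.122), so its interval excluded a change of 0.5 log2 units. Lrit3, which places Trpm1 at the synapse, stood at 0.77 (SE 0.319).

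Horizontal cell genes had 1 of 10 positive (median -0.06), with Tfap2b, which amacrine cells share, at -0.05 (SE 0.0825). Within single runs, 3 of 10 were positive in run 1 (median -0.08) and 6 of 10 in run 2 (median 0.02). Amacrine cell genes had 14 of 29 positive (median -0.05) and 4 with an unadjusted p under 0.05. Slc17a8, the vesicular glutamate transporter of a glutamatergic amacrine type, measured 25.0, 25.3, 26.7, 26.4 and 37.7 CPM in wildtype and 22.3, 18.7, 24.5, 18.2 and 26.4 CPM in Gne+/- mice of run 1. The values of run 2 were 14.1 and 12.5 against 7.20 and 7.66 CPM. Of the 7 Gne+/- libraries, 6 lay below all wildtype libraries of their run, and the difference was -0.49 (SE 0.171). Gad2, which makes GABA, stood at -0.42 (SE 0.161), with values of 22.5 and 16.6 against 35.7 and 28.5 CPM in run 2, while its partner Gad1 stood at 0.51 (SE 0.555). Ganglion cell genes, the output of the retina, had 11 of 22 positive (median -0.00), with Rbpms, which marks all of these cells, at 0.22 (SE 0.166).

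Synapses were read from 33 genes of the ribbon synapse, 13 positive (median -0.06). A second list held 46 genes of the receptors for glutamate, GABA and glycine, with the scaffold gene Gphn included, 13 positive (median -0.09). The receptor list had 4 members with an unadjusted p under 0.05, of 46 tested, against 5.76% of all genes. Among these were Grik1, described above, the kainate receptor Grik2 at -0.30 (SE 0.135) and Gphn, the scaffold of inhibitory synapses, at -0.27 (SE 0.127). In mice without C3 the medians of the 2 lists were -0.02 and -0.02. Within runs the receptor median was -0.08 in run 1 and 0.00 in run 2. The summed receptor level was 3570 and 4420 CPM in Gne+/- mice 1 and 2, against 5310 to 6270 CPM in the other 8 libraries of run 1. Gphn measured 191 and 285 CPM in these 2 mice and 374 to 494 CPM in the others, and Grik2 60.7 and 67.3 against 92.6 to 131 CPM. With the run score as a covariate the receptor median was -0.01.

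Mueller glia span the retina and support its neurons. Of 23 tested genes 15 were positive (median 0.07), with 4 at an unadjusted p under 0.05 that pointed both ways. Abca8a stood at -0.42 (SE 0.152), Crym at -0.41 (SE 0.165) and Dkk3 at -0.38 (SE 0.180), whereas Slc38a3, a glutamine transporter, stood at 0.46 (SE 0.183). Glul, glutamine synthetase, measured 1890 to 2800 CPM in wildtype and 1500 to 2580 CPM in Gne+/- mice of run 1, at -0.09 (SE 0.120). Its level in Gne+/- mouse 4 was the lowest of run 1.

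Genes of reactive gliosis had 13 of 18 positive, with a median of 0.18 over both runs, 0.27 in run 1, 0.08 in run 2 and -0.05 without C3. Gfap, the intermediate filament of astrocytes and reactive Mueller cells, measured 3.35, 4.23, 6.28, 9.47 and 10.2 CPM in wildtype and 6.30, 7.52, 11.9, 28.3 and 14.9 CPM in Gne+/- mice of run 1. Its run 2 values were 3.13 and 2.02 against 5.36 and 1.70 CPM. The highest value was that of Gne+/- mouse 4, the groups overlapped in both runs, and Gfap stood at 0.88 (SE 0.390, adjusted p = 0.849). Cd44, a hyaluronan receptor of glial processes, measured 10.6, 14.5, 8.89, 11.8 and 11.5 CPM in wildtype and 12.5, 18.6, 18.2, 38.6 and 15.7 CPM in Gne+/- mice of run 1. In run 2 it measured 12.6 and 9.62 against 10.6 and 17.8 CPM. Here too mouse 4 was highest, and 4 of 5 Gne+/- libraries of run 1 lay above all wildtype libraries, at 0.73 (SE 0.229). Gne+/- mouse 4 was also the library with the highest lens sum, 1810 CPM. Without Gne+/- mice 1 and 4, an alternative added after seeing the data, the gliosis median was 0.03 and Gfap stood at 0.66. With the run score as a covariate the median turned to -0.10, and Gfap stood at 1.15. With the Y-linked level as a covariate the median was 0.21, and the part of lens tissue in these values was not tested.

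Of 8 tested astrocyte genes 7 were positive, with a median of 0.82 that rested on run 1: it was 1.06 in run 1, -0.09 in run 2 and -0.09 without C3. It was 0.41 with the run score as a covariate and 0.54 without Gne+/- mice 1 and 4. Gja1, the gap junction protein connexin 43, stood at 1.51 (SE 0.645), with 0.112 to 3.15 CPM in wildtype and 0.914 to 6.00 CPM in Gne+/- mice of run 1. Its highest values, 5.31 and 6.00 CPM, were in mice 1 and 4, whose lens sums were the highest, and without them Gja1 stood at 0.75. The typical error of a member was 0.672, and Slc1a2, the only abundant member beside Aqp4, stood at -0.14 (SE 0.132). The summed level of the list, 395 to 856 CPM in wildtype and 448 to 789 CPM in Gne+/- mice of run 1, gave no order.

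Immediate early genes, the first to be transcribed after neuronal activity or handling, had 16 of 23 positive, with medians of 0.21 over both runs, 0.15 in run 1, 0.23 in run 2 and -0.38 without C3. Junb measured 0 to 4.78 CPM in wildtype and 0.611 to 8.20 CPM in Gne+/- mice of run 1, and 6.10 and 9.00 against 18.9 and 19.3 CPM in run 2, at 1.67 (SE 0.742). Fos, the most used member, stood at -0.05 (SE 0.416). Heat shock proteins had 8 of 17 positive (median -0.05), in a range from -0.35 for Hspe1 to 2.09 for Cryab. The unfolded protein response had 15 of 25 positive (median 0.04), apoptosis and p53 targets 12 of 25 (median -0.01), and antioxidant defence 14 of 26 (median 0.02). Hspa5, the chaperone that reports stress of the endoplasmic reticulum, stood at 0.03 (SE 0.184).

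The interferon, antigen presentation and cytokine lists had medians near 0, with wide errors. Interferon response genes had 16 of 28 positive (median 0.11), with Isg15 at 1.29 (SE 0.661). Antigen presentation had 8 of 16 positive (median 0.02), with the class I genes H2-D1 at 0.14 (SE 0.232) and H2-K1 at 0.19 (SE 0.229). Cytokine and NF-kB signalling had 13 of 23 positive (median 0.07). Of 23 listed genes of T cells, B cells and neutrophils 5 were tested, 4 of them below 1 CPM. In this list 1 of 5 was positive, with a median of -0.70 and a typical error of 1.22. Its median was -0.07 in run 1, -3.75 in run 2 and -0.12 without C3. The summed level of the list was 14.3 to 35.6 CPM over the 14 libraries with overlapping groups.

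Lens genes were the list with the largest median, 3.34, with 13 of 14 tested members positive and 9 at an unadjusted p under 0.05. Of 26 listed genes, 7 were at 0 in all 14 libraries. The summed lens level was 176, 11.4, 25.9, 7.48 and 9.71 CPM in wildtype and 853, 140, 169, 1810 and 233 CPM in Gne+/- mice of run 1. In run 2 it was 23 and 8.39 against 11.6 and 4.92 CPM. In run 1 the groups overlapped through wildtype mouse 1 alone, and in run 2 they overlapped. The median of the list was 3.98 in run 1, -0.27 in run 2, 1.06 in mice without C3 and 1.69 without Gne+/- mice 1 and 4. The libraries without C3 had sums of 8.42 to 179 CPM.

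Most single lens genes named here were highest in the same mice. Mip, the water channel of lens fibres, measured 33.1 and 23.5 CPM in Gne+/- mice 1 and 4 and 0 to 8.68 CPM in the other 12 libraries. Grifin, a lens galectin, measured 9.13 and 16.6 CPM in these 2 mice, and 0 to 2.23 CPM elsewhere. Crygc was an exception, with no count in wildtype and 115 counts in Gne+/- mice 3 and 5. Against a floor of 3 counts over the wildtype group the ratio was 36.2. Its lower 95% limit was 29.0 (counting error only), and the remaining Gne+/- libraries had no count. Aldh3a1, an abundant enzyme of the cornea, measured 27.8 and 22.7 CPM in mice 1 and 4 and 0 to 4.66 CPM in the other 12 libraries. The keratin Krt12, which defines the corneal epithelium, had a median of 0 CPM in both groups. The 2 libraries with the highest lens sums were also the only libraries of run 1 in these groups with a mean of the 4 Y-linked genes above 1 CPM. With the Y-linked level as a covariate the lens median was 3.12, and any other part of the Y-linked level in it was not tested.

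**Figure D4:**
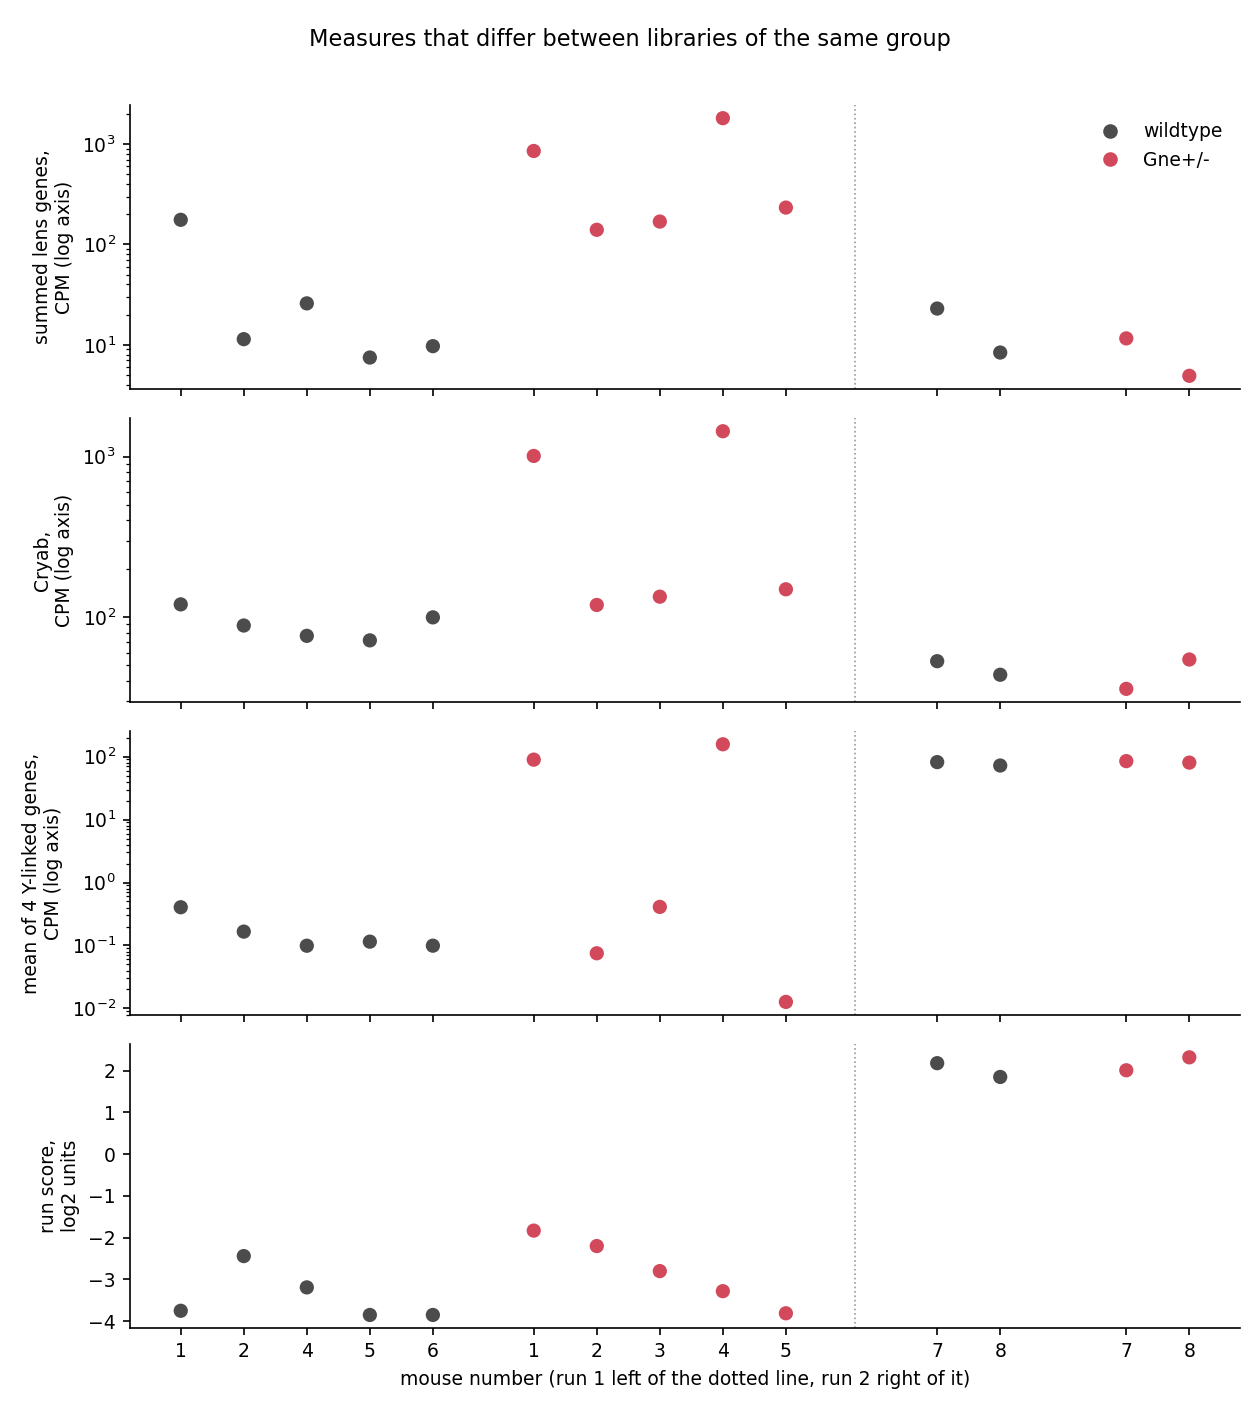
Summed CPM of the lens genes, CPM of Cryab, mean CPM of 4 Y-linked genes (log axes) and the run score in each of the 14 libraries, with a dotted line between run 1 and run 2. Gne+/- mice 1 and 4 stand apart from the rest of run 1 in the first 3 panels, with lens sums of 853 and 1810 CPM, and the run score separates the runs.

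Other neighbouring or vascular tissues showed smaller differences. Pericytes and smooth muscle had 10 of 14 positive (median 0.38, typical error 0.845), and fibroblasts, sclera and choroid stroma 11 of 16 (median 0.37, typical error 0.575). The fibroblast sum was 96.8 to 156 CPM in wildtype and 115 to 171 CPM in Gne+/- mice of run 1, and 46.3 and 59.6 against 66.6 and 65.6 CPM in run 2, so the groups were apart in run 2 alone. Endothelium had 10 of 15 positive (median 0.09), with Kdr and Flt1, receptors for vascular growth factor, at 0.02 (SE 0.116) and 0.13 (SE 0.104). Pigment epithelium and melanocytes had 10 of 21 positive (median -0.06), cornea and ciliary body 7 of 15 (median -0.06), skeletal muscle 5 of 9 (median 0.09), oligodendrocytes 4 of 9 (median -0.04) and erythrocytes 2 of 6 (median -0.34).

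Lists of general metabolism had medians between -0.25 and 0.14 over both runs. Nuclear subunits of the respiratory chain had 36 of 79 positive (median -0.02), and 16 of 79 in run 2 (median -0.16), and cytosolic ribosomal proteins 36 of 75 (median -0.01), although the ribosomal median was 0.12 in run 1 and -0.23 in run 2. Mitochondrially encoded subunits had 1 of 8 positive (median -0.25, 0.02 without C3), with mt-Nd4 at -0.35 (SE 0.170) and mt-Co1 at -0.02 (SE 0.120). Their median was -0.15 in run 1 and -0.54 in run 2. Glycolysis had 6 of 21 positive (median -0.06), with Ldha, the enzyme that makes lactate, at -0.33 (SE 0.180). Cholesterol synthesis had 16 of 20 positive (median 0.14), with Ebp at 0.97 (SE 0.360).

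Cilium transport genes, which serve the photoreceptor outer segment, had 12 of 31 positive (median -0.07), with Ift20 at -0.39 (SE 0.159). The core clock had 10 of 17 positive (median 0.04), with Per2 at 0.63 (SE 0.270) and Clock at -0.00 (SE 0.100). The extracellular matrix of the retina had 18 of 32 positive (median 0.03). No member of these lists passed the threshold.

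**Figure D5:**
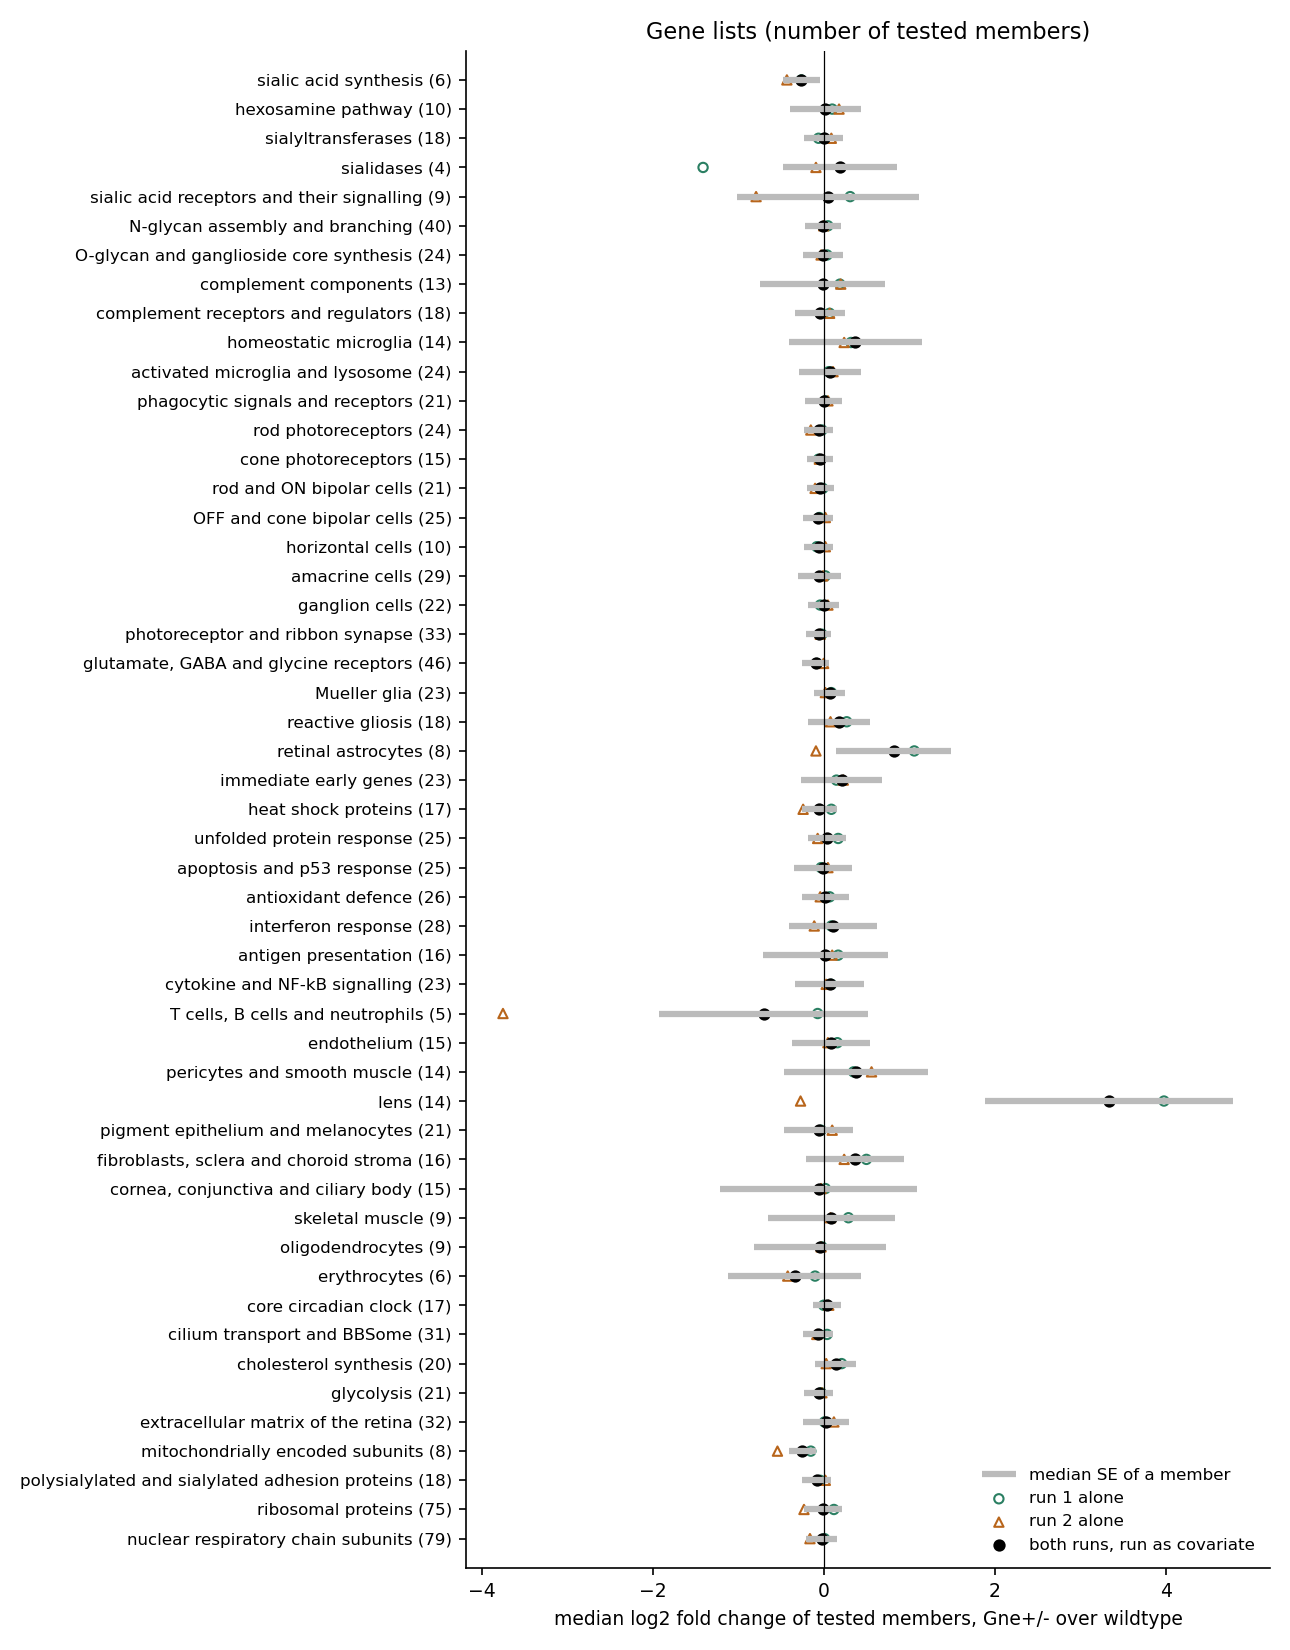
Median log2 fold change of the tested members of 51 gene lists, Gne+/- against wildtype (filled point), with a grey bar of plus and minus the typical standard error of a member, and the medians of run 1 alone (open circle) and run 2 alone (open triangle). Most lists lie close to 0, the lens list lies at 3.34 with run 1 at 3.98 and run 2 at -0.27, and the Y-linked list is left out.

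Large differences in well-measured genes were rare. Of 8898 genes at 10 CPM or more, 6 had a difference of at least 1 log2 unit. These were Gne, A930014E10Rik, Iars2, Cryab, the antioxidant gene Txn1 (1.03, SE 0.574) and the Y-linked Uty (2.26, SE 2.02). Txn1 measured 1.08 to 22.9 CPM in wildtype and 3.05 to 45.8 CPM in Gne+/- mice of run 1, with its highest values in Gne+/- mice 1 and 2, and 37.4 and 35.4 against 28.2 and 37.9 CPM in run 2. The Uty values followed the Y-linked genes described above. Of the 6, only Gne passed the threshold.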

How the data were processed

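Total RNA of retinal whole-mounts (100 ng a library) was sequenced with a 3′ mRNA kit, per the labels' protocols. The authors deposited unnormalized counts for each gene. The submitters' processing notes name STAR 2.7.3a, featureCounts, Subread 2.0.0 and the build GRCm38 (mm10). Version 2.0.3, Ensembl release 101, counting over exon and gene features, no strand setting and no assignment of reads that overlap several genes are recorded per the file headers. Reads where genes overlap are therefore lost, and a gene such as B2m, P2ry12 or Itgam listed at 0 is not a measure of its expression. The table held 55487 genes, of which 55141 were matched to a symbol, and equalled the 27 single deposited files.

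The counts of all 27 libraries were fitted with edgeR 4.0.16 in R 4.3.3 (quasi-likelihood, robust, 4 groups and run, 22 residual degrees of freedom). TMM factors scaled the libraries, and 17409 genes remained after filterByExpr with a minimum count of 10. The threshold was a Benjamini-Hochberg adjusted p of 0.05 over all tested genes. Standard errors were derived from the F statistic. The pipeline was tested on simulated data. The closest of 42 library pairs within a group differed by a chi-square of 23.7 per degree of freedom, so all were counted as separate samples. Total counts are given with the results, and counting intervals do not cover the spread between mice.

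Named genes were those past the threshold, the 12 higher and 12 lower protein-coding genes with an approved symbol and the smallest p, genes whose libraries do not overlap in either run, up to 4 members of a list with the smallest p, genes called by DESeq2 1.42.0 or limma 3.58.1 (voom), and a fixed set of retinal, glial and complement genes. Some genes that this rule takes are left out of the text. Other list members are named for their role and were chosen after their values were seen. The comparison, the gene lists and the rule were chosen with earlier results of these data known. Alternatives were other tools, scaling factors and filters, single runs, no run term, the 14 libraries alone, and each library left out. A covariate for the run score and the loss of Gne+/- mice 1 and 4 were added after the data were seen.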

Additional observations from a re-analysis of the deposited data

Results flagged for a closer look

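In 46 groups of 4 to 10 libraries, values centred on the mean of their run were searched for a library far from the rest of its group by Dixon's test. It flagged 3 groups, where chance flags about 1 in 20. C3 stood 1.02 log2 units above the run mean in Gne+/- mouse 5, at 285 CPM. The other Gne+/- mice of run 1 measured 101 to 128 CPM. Glul stood at -0.49 in Gne+/- mouse 4, at 1500 CPM, where the other 4 measured 2110 to 2580 CPM. Aif1 stood at -3.44 in Gne+/- mouse 4, with no count, where the other 4 measured 0.820 to 3.20 CPM. The cause of these values was not tested.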

How the results depend on the processing

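Without a run term no gene was called (0 by edgeR, with 325 genes reaching an unadjusted p of 0.05), and Gne stood at -1.49 with an adjusted p of 1. DESeq2 called 8 genes. With each library left out in turn, 1 to 2 genes were called, and the second was A930014E10Rik without Gne+/- mouse 5 (1.37, adjusted p = 0.0408). Gne stood at -1.60 to -1.48 in these fits. The difference of the Gne effect with and without C3 called 0 genes over both runs by edgeR (554 at an unadjusted p under 0.05), DESeq2 and limma-voom, and 4 in run 2 alone, among them the Y-linked Kdm5d, Eif2s3y and Ddx3y. The genes whose libraries do not overlap numbered 12, and 21 to 73 with a library left out. They numbered 60 without Gne+/- mice 1 and 4, and fewer libraries leave fewer chances to overlap. Cryab and Crybb1 reversed in run 2 alone, to -0.07 and -0.10.

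The 24 genes followed here, Gne aside, were the 12 higher and 12 lower protein-coding ones with an approved symbol and the smallest p. Their 690 values under alternatives gave 684 of the same direction below the threshold and 4 past it (Wwtr1, Crybb1, Srsf9 and Cryab by DESeq2). The rest were the 2 reversals above, with 0 others. The genes were selected in these same libraries, which most alternatives refit, so the same direction was largely built in. In the separate libraries without C3 the sign was the same for 9 of 12 higher and 5 of 12 lower genes. The stricter filter left 18 of the 24 to be tested. Mouse numbers shared by the genotypes did not pair the libraries: deviations of same-numbered mice correlated at -0.0578 to 0.189. A replicate block over the 12 libraries with shared numbers called 1 gene, as without the block, with Gne at -1.57. Below 10 CPM the depth and the spread between mice limit most genes, and run 2 holds 2 libraries a group.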
